A study of Mus musculus with 9 samples.

Results

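The miR-181 family of mouse microRNAs (miRNAs) was followed through 3 cell populations of the embryonic cortex that succeed each other as neurons are made. Its members were taken by name from the deposited count table, where they are mmu-miR-181a-5p, mmu-miR-181b-5p, mmu-miR-181c-5p and mmu-miR-181d-5p, with the prefix for mouse left out from here on. These are 4 of 1052 miRNAs, and all 4 were among the 188 abundant enough to be tested. The mean level of the summed family differed by at most 1.13-fold between populations after TMM scaling (without it, its mean share of all counts went from 1.36% in proliferating progenitors to 1.75% in neurons), while its make-up shifted toward miR-181a-5p: for each count of miR-181b-5p proliferating progenitors had 1.46 counts of miR-181a-5p, differentiating progenitors 1.71 and newborn neurons 2.0.

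The cells came from the lateral cortex of C57BL/6 embryos at embryonic day 14.5 and were separated by sorting on endogenous fluorescent reporters, with 3 small RNA libraries per population and no treatment. Proliferating progenitors were negative for both reporters, named R and G in the sample titles. Differentiating progenitors carried R without G, and newborn neurons carried G. All groups therefore share strain, age and tissue and differ in the sorting gate, and cells that lack both reporters for any other reason also fall into the gate of the proliferating progenitors. The labels do not say whether the libraries of a population came from separate embryos or litters, so p-values measure only the spread between these libraries, which may be technical.

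A miRNA is cut from a hairpin precursor, loaded into an Argonaute protein and guides it to messenger RNAs that pair with its seed, the bases near its 5′ end, which lowers the output of those messengers. miRNAs that share a seed are treated as a family because their predicted targets largely coincide. The miR-181 family is best known from lymphocytes, where miR-181a tunes the sensitivity of the T cell receptor, and it is also known from endothelium and from neurons, where miR-181a has been linked to the control of synaptic glutamate receptors.

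The mature sequences are shown because the members differ so little that the counting of their reads depends on single bases. They are taken from RefSeq (GRCm38.p6), where all 4 names were matched, and the capitals mark the seed, bases 2 to 8.
miR-181a-5p: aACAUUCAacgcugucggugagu
miR-181b-5p: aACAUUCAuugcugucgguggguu
miR-181c-5p: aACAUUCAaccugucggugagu
miR-181d-5p: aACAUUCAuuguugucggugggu
The seed is the same in all 4, and no other mature mouse miRNA among the 1679 names of that table carries it. With positions counted from 1 at the 5′ end, miR-181b-5p differs from miR-181a-5p by A9U, C10U and A21G and is longer at its 3′ end, at 24 against 23 bases. miR-181d-5p differs from miR-181b-5p by C12U and lacks its last base. miR-181c-5p, at 22 bases, is miR-181a-5p with the base at position 11 removed. A counting procedure that allows a mismatch could therefore place reads of miR-181b-5p under miR-181d-5p and the reverse, and the number of mismatches allowed is not given in the sources used here.

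The family has 6 hairpin genes in 3 pairs (GRCm38, the mm10 build). Mir181a-1 lies at chr1:137966455-137966541 and Mir181b-1 at chr1:137966639-137966718, both on the plus strand with 97 bases between them, in an intron of the non-coding transcript Gm4258 and, on the opposite strand, of the long non-coding RNA Gm26936. An exon of the long non-coding RNA A430106G13Rik overlaps part of Mir181a-1 and all of Mir181b-1. Mir181a-2, at chr2:38852735-38852810, and Mir181b-2, at chr2:38853830-38853918, are on the plus strand, 1019 bases apart, in an intron of Nr6a1, a nuclear receptor gene on the opposite strand, and Mir181b-2 also lies within an exon of Gm44144, an unproven gene model on that strand. Mir181d, at chr8:84178716-84178787, and Mir181c, at chr8:84178873-84178961, are on the minus strand with 85 bases between them, in an intron of Nanos3, a germ cell gene on the same strand. miR-181a-5p and miR-181b-5p are thus each made from 2 genes, one on each of 2 chromosomes.

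The total count over all analysed miRNAs ran from 821155 to 3856484 per library. Rows with a database accession were mostly 5p arms, from the 5′ side of the hairpin: 925 names ended in 5p and 114 in 3p. Places by abundance, shares of counts and marker sums therefore hold only among the miRNAs counted here, and many 3p arms are not among them. Levels are given in CPM, counts scaled to a common total after TMM factors had corrected the totals for differences in composition. These factors lay between 0.903 and 1.019 in 8 libraries and at 1.219 in newborn neuron replicate 3, which stood apart. Marker miRNAs were read beside the labels. Their lists were chosen with earlier results of these data known, so they cannot check the labels independently. Of 10 neuronal and 7 neural progenitor miRNAs listed, 8 and 6 had a row in the table. Those without a row were miR-124-3p, miR-128-3p and miR-92b-3p. The summed CPM of 8 neuronal miRNAs was 4737 to 5868 for proliferating progenitors, 6992 to 8089 for differentiating progenitors and 23874 to 28880 for neurons, and that of 6 neural progenitor miRNAs was 10056 to 10983, 9256 to 11666 and 5538 to 10516. The neuronal sum is mostly miR-7a-5p, at 2845 to 3852, 5126 to 5880 and 20616 to 24861 CPM. Of the 8 neuronal miRNAs, 6 were called higher in neurons than in proliferating progenitors, miR-128-1-5p was not called, and miR-129-5p went the other way and was called lower, from 594 to 764 CPM down to 178 to 253. Of the 6 progenitor miRNAs, 2 were called lower and their sum overlapped. Of all 188 tested miRNAs, 29.8% were called higher in neurons than in proliferating progenitors and 26.6% lower.

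miR-181a-5p was the most abundant member, at place 16 of 188 by mean CPM, between miR-7a-5p and miR-340-5p. Its counts were 9369, 7246 and 4926 for proliferating progenitors, 11506, 9640 and 12557 for differentiating progenitors, and 35090, 15924 and 12451 for newborn neurons. As CPM these were 7103, 7407 and 6448, then 8216, 8490 and 8939, then 9031, 8401 and 9568. All 3 libraries of proliferating progenitors lay below all 6 others, while differentiating progenitors and neurons overlapped. The means were 6986 ± 490, 8549 ± 365 and 9000 ± 584 CPM (SD, n = 3 each).

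miR-181b-5p came next, at place 18. Proliferating progenitors had 4628, 5143 and 4532 CPM, differentiating progenitors 4558, 4823 and 5638, and neurons 4052, 4409 and 5048. The populations overlapped throughout, and their means of 4768 ± 329, 5006 ± 563 and 4503 ± 505 CPM (SD, n = 3) did not differ beyond their spread. The highest and lowest values, 5638 and 4052 CPM, were those of differentiating progenitor replicate 3 and newborn neuron replicate 1.

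miR-181d-5p held place 25, with 2541, 2655 and 2689 CPM at the start of the lineage, 2728, 2821 and 2504 in the middle population and 2212, 2370 and 2942 at the neuron end. Its means were 2628 ± 77.2, 2684 ± 163 and 2508 ± 384 CPM (SD, n = 3), and again all populations overlapped. The widest spread was that of the neurons, whose replicate 3 gave the highest value of all 9 libraries.

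miR-181c-5p was rarer by more than a factor of 10, at place 82, although its gene lies beside that of miR-181d-5p. Proliferating progenitors had 129, 86 and 49 counts of it, differentiating progenitors 163, 136 and 133, and neurons 382, 240 and 154, or 97.8, 87.9 and 64.1, then 116, 120 and 94.7, then 98.3, 127 and 118 CPM. The lowest neuron library stood just above the highest library of proliferating progenitors, and differentiating progenitors overlapped both. With 49 counts in proliferating progenitor replicate 3, its share of that library was 0.00597% (95% Wilson interval 0.00451% to 0.00789%), so counting error alone is wide there. Within every library the order was miR-181a-5p, miR-181b-5p, miR-181d-5p and miR-181c-5p. Levels of different miRNAs also depend on how well each sequence is captured in library preparation, which was not measured here.

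**Figure D1:**
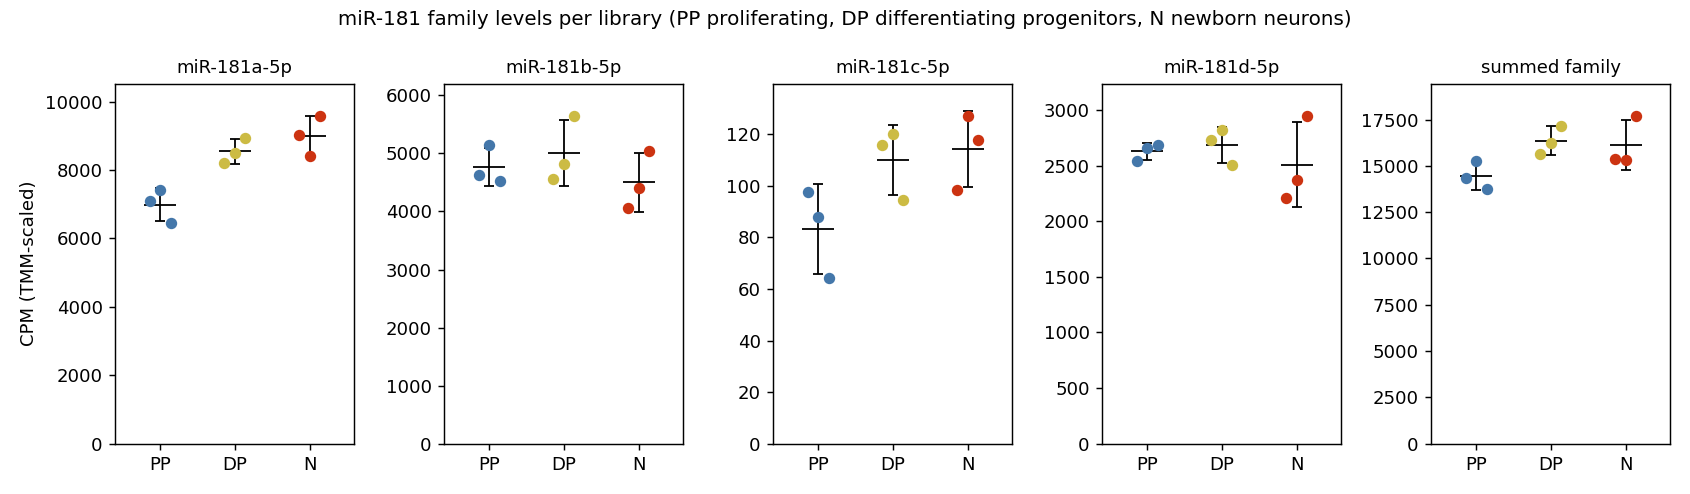
CPM scaled by TMM factors (y axes, starting at 0, each with its own range) of the 4 members and of their sum in the 9 libraries, by population (x axes); points are libraries, and black lines and bars are the mean and SD of 3. For miR-181a-5p every library of proliferating progenitors is below every other library, while miR-181b-5p and miR-181d-5p overlap in all populations.

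Summed, the 4 members would stand at place 7 among 185 entries, between let-7g-5p (19984 CPM) and miR-99b-5p (15486 CPM). The sum came to 14370, 15292 and 13733 CPM for proliferating progenitors, to 15618, 16254 and 17175 for differentiating progenitors and to 15393, 15306 and 17676 for neurons. The first population lay below the others, narrowly so against neurons, and the others overlapped. The ratio of mean CPM was 1.13 from proliferating to differentiating progenitors, 0.986 from there to neurons and 1.11 over both steps. No test is given for the sum. Without a TMM factor, the family's share of the analysed counts was 1.28% to 1.43%, 1.59% to 1.63% and 1.54% to 2.16%. The highest value is again that of newborn neuron replicate 3.

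Newborn neurons held 1.29-fold more miR-181a-5p than proliferating progenitors (log2 change 0.37, SE 0.12, edgeR adjusted p = 0.014), and its libraries did not overlap. It was the single member of 4 called at an adjusted p under 0.05, in a comparison in which 56.4% of the 188 tested miRNAs were called, 29.8% higher and 26.6% lower. The call is modest and rests in part on a single library: without proliferating progenitor replicate 3, the lowest for miR-181a-5p, the log2 change was 0.31 with an edgeR adjusted p of 0.0813, and the 20 alternatives gave adjusted p between 2.21e-06 and 0.0813. Without the outlying newborn neuron replicate 3 it was 0.33 (edgeR adjusted p = 0.00956). miR-181c-5p had a larger but less precise log2 change of 0.44 (SE 0.21, edgeR adjusted p = 0.0804), with no overlap between libraries. It passed the threshold with library totals in place of TMM factors (log2 change 0.63, edgeR adjusted p = 0.0354) and without differentiating progenitor replicate 3 (0.48, edgeR adjusted p = 0.0457). miR-181b-5p (-0.08, SE 0.13, edgeR adjusted p = 0.63) and miR-181d-5p (-0.07, SE 0.13, edgeR adjusted p = 0.678) were not called. With library totals they were at 0.12 and 0.14, but that scaling moved the median of all tested miRNAs by 0.18 in this comparison, about as far. The libraries of 2 of 4 members did not overlap, against 64.4% of all tested miRNAs, 32.4% higher and 31.9% lower. In these bulk samples fewer cells that make a miRNA and less of it per cell cannot be told apart.

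Neither step on its own gave a call for a member, and both steps share the differentiating progenitor libraries. Between both progenitor populations, the first step, 0 of 4 members were called, where 16.0% of tested miRNAs were, 7.98% in each direction. At this step 1 of 4, miR-181a-5p, had an unadjusted p under 0.05, as did 26.6% of tested miRNAs, and with DESeq2 the same member alone was called, where 18.6% of tested miRNAs were. Its log2 change was 0.29 (SE 0.12, edgeR adjusted p = 0.113) with no overlap between libraries, a separation seen for 32.4% of tested miRNAs, 13.8% higher and 18.6% lower. This call turned on the method: DESeq2's Wald test gave an adjusted p of 0.0021, a fit of only both populations gave 0.32 with an edgeR adjusted p of 0.0389, and leaving out newborn neuron replicate 3 gave 0.26 with 0.0485. miR-181c-5p had 0.39 (SE 0.21, edgeR adjusted p = 0.244), miR-181b-5p 0.07 (SE 0.13, edgeR adjusted p = 0.753) and miR-181d-5p 0.03 (SE 0.13, edgeR adjusted p = 0.906).

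At the second step, from differentiating progenitors to neurons, 0 of 4 members were called, by edgeR or DESeq2 and also at an unadjusted p under 0.05, while 46.3% of tested miRNAs were called by edgeR, 23.9% higher and 22.3% lower, 42.0% were called by DESeq2 and 52.1% had an unadjusted p under 0.05. The log2 changes were 0.07 (SE 0.12) for miR-181a-5p, 0.05 (SE 0.20) for miR-181c-5p, -0.10 (SE 0.13) for miR-181d-5p and -0.15 (SE 0.13) for miR-181b-5p, with edgeR adjusted p between 0.376 and 0.846. All 4 overlapped between populations, where 49.5% of tested miRNAs did not, with 27.1% of all tested higher and 22.3% lower. The median size of the log2 change, whatever its sign, was 0.18, 0.09 and 0.22 for the 4 members at the first step, the second and over both, beside 0.32, 0.53 and 0.68 for all tested miRNAs. By mean CPM miR-181a-5p, miR-181b-5p and miR-181d-5p stood at places 16, 18 and 25 of 188, and miRNAs of like abundance were not compared separately.

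**Figure D2:**
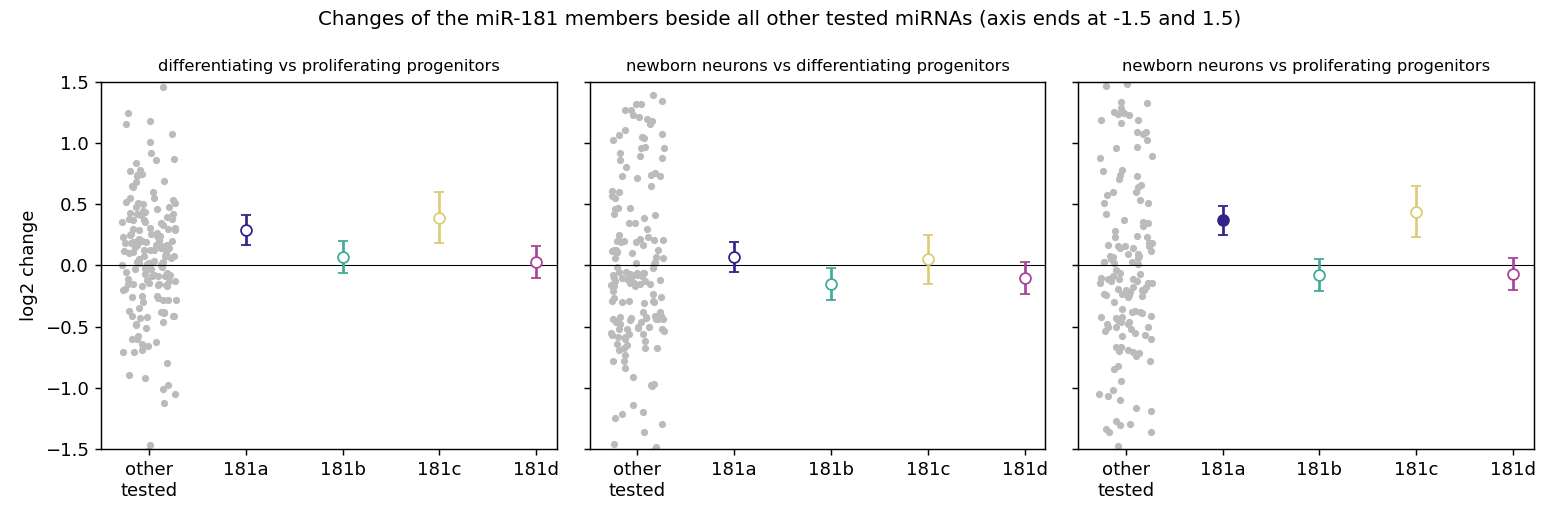
Log2 change (y axis, from -1.5 to 1.5) of the 4 members in the 3 comparisons, with bars for the SE and filled points for an edgeR adjusted p under 0.05, beside the 184 other tested miRNAs in grey. Of those, 16, 28 and 47 lie outside the axis in the panels from left to right, while the members stay between -0.15 and 0.44.

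The ratio of 2 members within a library needs no scaling between libraries and so shows the make-up of the family more sharply than the levels do. The ratio of miR-181a-5p to miR-181b-5p was 1.53, 1.44 and 1.42 for proliferating progenitors, 1.8, 1.76 and 1.59 for differentiating progenitors and 2.23, 1.91 and 1.9 for neurons. The 3 populations did not overlap and stood in the order of the lineage. On the log2 scale, with 0.5 counts added to both members, the means were 0.55 ± 0.06, 0.78 ± 0.10 and 1.0 ± 0.13 (SD, n = 3 each), a difference of 0.45 between neurons and proliferating progenitors. An exact permutation test over all 1680 assignments of the 9 libraries to the populations gave p = 0.00357, the smallest this design allows, or 0.0214 after Benjamini-Hochberg adjustment over the 6 ratios of members. Each pair of populations gave p = 0.1 in a two-sided exact permutation test, the smallest that 3 against 3 can give. These tests take the libraries as unpaired. In each population, however, replicate 1 had the highest ratio and replicate 3 the lowest, and no test within same-numbered libraries was run. The difference stayed between 0.38 and 0.49 when libraries were left out singly, but the adjusted p passed 0.05 without proliferating progenitor replicate 2 (0.0786), proliferating progenitor replicate 3 (0.0857) or newborn neuron replicate 1 (0.0643), with exact permutation p between 0.0107 and 0.0143. Such separation is common in this lineage: of the 17578 ratios that can be formed between the 188 tested miRNAs, 22.2% kept all 3 populations apart.

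The ratio of miR-181a-5p to miR-181d-5p had the same order of means but was less cleanly separated. The log2 ratio was 1.41 ± 0.13, 1.67 ± 0.14 and 1.85 ± 0.17 (SD, n = 3; exact permutation p = 0.025, 0.075 after adjustment), with no overlap between proliferating progenitors and either other population. The ratio of miR-181c-5p to miR-181d-5p, which come from neighbouring genes, had means of -4.99 ± 0.35, -4.61 ± 0.10 and -4.45 ± 0.21 (SD, n = 3; exact permutation p = 0.0393, 0.0786 after adjustment). Neither passed the threshold after adjustment. Without differentiating progenitor replicate 3 the former reached 0.0321, and without proliferating progenitor replicate 1 the latter reached 0.0429.

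The other 3 ratios gave no call. miR-181b-5p against miR-181d-5p, the pair that differs by C12U, was the steadiest, with log2 means of 0.86, 0.90 and 0.85 (exact permutation p = 0.986), and its ratio lay between 1.67 and 1.94 in 8 libraries and at 2.25 in differentiating progenitor replicate 3. How many reads these names share was not tested. miR-181a-5p against miR-181c-5p had means of 6.40, 6.28 and 6.30 (exact permutation p = 0.807). miR-181b-5p against miR-181c-5p had means of 5.85, 5.50 and 5.30 (exact permutation p = 0.0893, 0.134 after adjustment), with no overlap between proliferating progenitors and neurons. The SD of a population reached 0.34 there, so that differences of that size are within the spread of ratios that involve the rare miR-181c-5p.

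**Figure D3:**
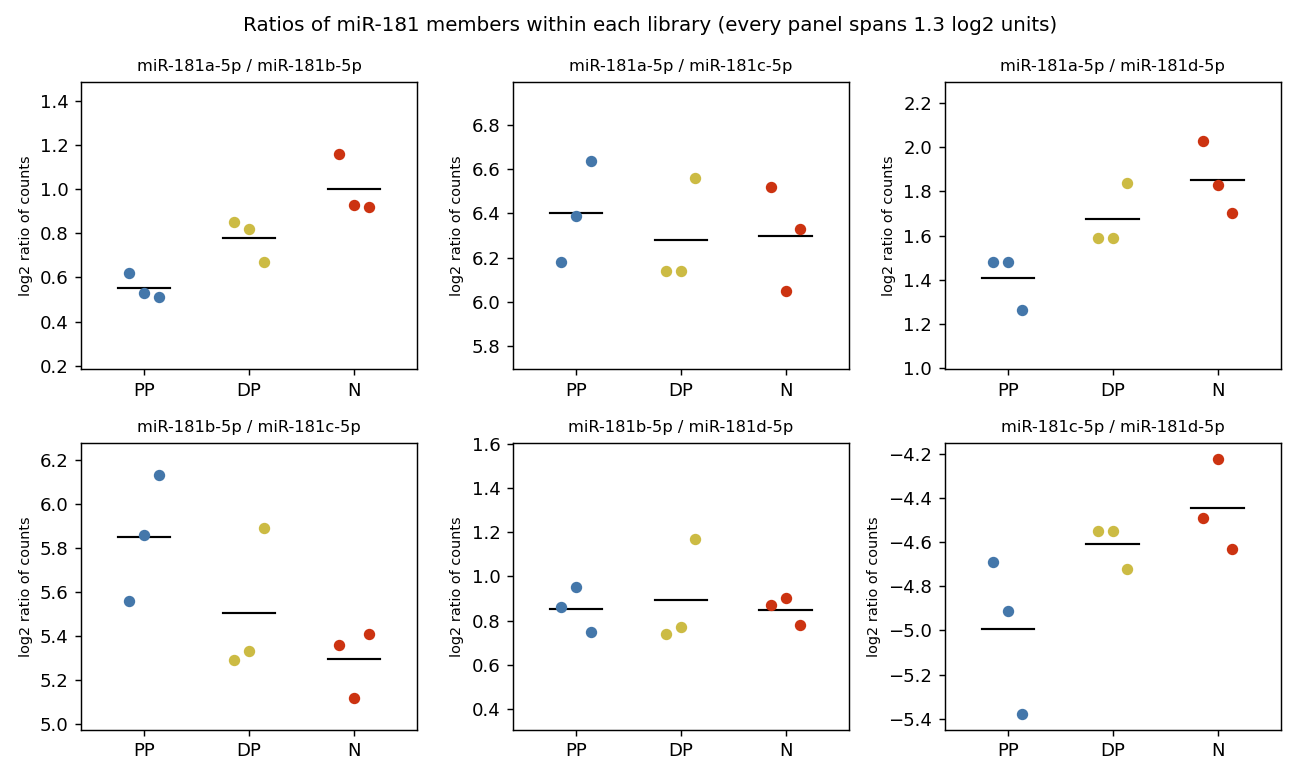
Log2 ratio of the counts of 2 members within each library (y axes, each spanning 1.3 log2 units) for the 6 pairs of members, by population (PP proliferating progenitors, DP differentiating progenitors, N newborn neurons); points are libraries and lines are means of 3. miR-181a-5p over miR-181b-5p steps up from 0.55 through 0.78 to 1.0 with no overlap, while miR-181b-5p over miR-181d-5p stays near 0.9.

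As shares of the summed family, miR-181a-5p went from 48.3% ± 1.24 in proliferating progenitors through 52.3% ± 0.284 to 55.9% ± 2.43 in neurons (SD, n = 3 each), with no overlap between the populations. miR-181b-5p went from 32.9% ± 0.715 through 30.6% ± 1.98 to 27.9% ± 1.37, and miR-181d-5p from 18.2% ± 1.2 through 16.5% ± 1.64 to 15.5% ± 1.14. miR-181c-5p made up 0.467% to 0.827% of the family in any library. Shares are tied to each other, since they add up to the whole, and are given as a description.

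**Figure D4:**
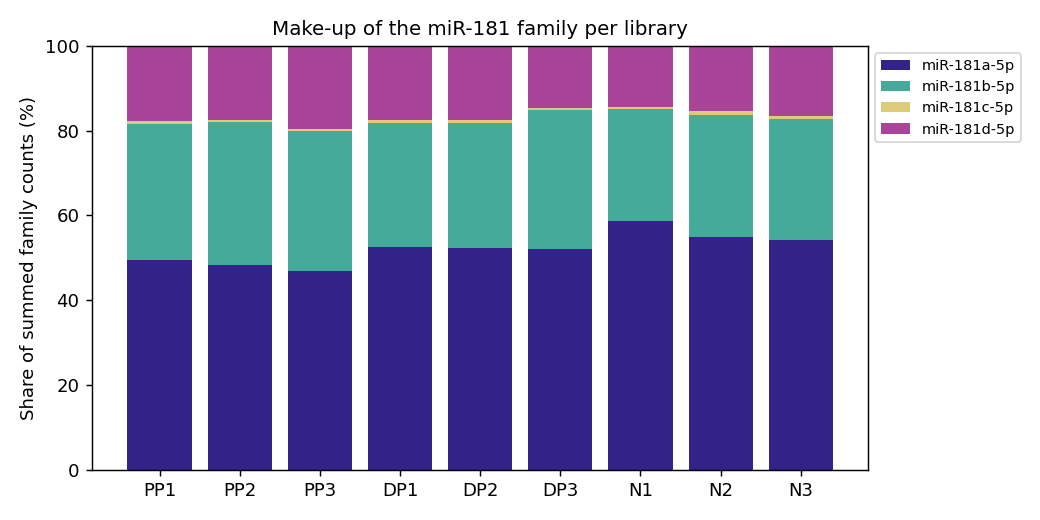
Share of the summed family counts (y axis, percent) taken by each member in the 9 libraries (x axis; PP, DP and N with the replicate number). The share of miR-181a-5p is 47.0% to 49.4% in proliferating progenitors, 52.0% to 52.6% in differentiating progenitors and 54.1% to 58.7% in neurons.

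The 2 genes of miR-181a-5p and the 2 of miR-181b-5p could not be told apart as sources from the rows of these mature names. The table has a row for each precursor, but identifies it by a database number that the sources used here do not pair with a gene name, and the rows of 1 name hold nearly equal counts. Which reads they share was not examined. The 2 rows of miR-181a-5p differed by 1 to 13 counts in a library, at most 0.142% of the larger row. The 2 rows of miR-181b-5p differed by more. The larger exceeded the smaller by 404, 287 and 201 counts for proliferating progenitors, by 442, 437 and 435 for differentiating progenitors and by 1284, 676 and 669 for neurons. As a share of the larger row this was 6.62%, 5.70% and 5.81%, then 6.92%, 7.98% and 5.49%, then 8.15%, 8.09% and 10.2%. The neuron libraries were highest, although the lowest of them (8.09%, 95% Wilson interval 7.52% to 8.69%) was within counting error of differentiating progenitor replicate 2 (7.98%, interval 7.29% to 8.73%). The intervals take the reads of the smaller row to be part of the larger row, and would be too narrow otherwise. They cover counting error only, since reads copied by PCR are not independent molecules. This pattern was chosen for description after its values were seen. The levels and ratios above use the larger row; with the smaller row, an alternative added after seeing the data, the log2 ratio of miR-181a-5p to miR-181b-5p differed by 0.50 between neurons and proliferating progenitors, against 0.45.

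The hairpins are shown because they mark where reads of the duplicate genes can differ, with the mature sequence in capitals (RefSeq, GRCm38.p6).
Mir181a-1: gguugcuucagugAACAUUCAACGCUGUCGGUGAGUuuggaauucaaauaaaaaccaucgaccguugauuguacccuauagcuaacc
Mir181a-2: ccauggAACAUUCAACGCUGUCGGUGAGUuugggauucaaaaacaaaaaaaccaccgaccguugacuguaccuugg
Mir181b-1: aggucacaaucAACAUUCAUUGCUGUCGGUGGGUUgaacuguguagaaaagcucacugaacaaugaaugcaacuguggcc
Mir181b-2: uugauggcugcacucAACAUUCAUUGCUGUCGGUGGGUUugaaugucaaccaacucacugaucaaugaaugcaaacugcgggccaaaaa
After the mature sequence, both miR-181a hairpins go on with the same 4 bases before they differ, so a read that runs past the 3′ end by up to 4 bases matches both equally. The miR-181b hairpins differ at the first base after the mature sequence, G in Mir181b-1 and U in Mir181b-2. Whether reads that run past the 3′ end make up the difference between the rows of miR-181b-5p was not tested, since the table holds no read sequences. Counts for the partner arms from the 3′ side of these hairpins, whose sequences do differ between the duplicate genes, were not analysed here.

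**Figure D5:**
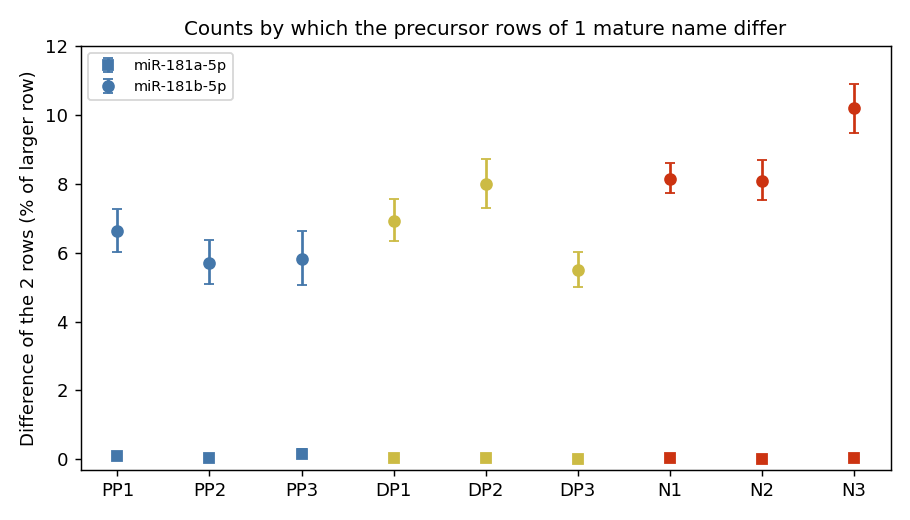
Counts by which the larger of the 2 precursor rows of miR-181a-5p (squares) and of miR-181b-5p (circles) exceeds the smaller, as a percentage of the larger row (y axis), in the 9 libraries (x axis); bars are 95% Wilson intervals. The rows of miR-181a-5p differ by at most 0.142%, those of miR-181b-5p by 5.49% to 10.2%.

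The miRNAs most like each member were found by the root-mean-square difference over the 9 libraries between log2 CPM centred on each miRNA's own mean, where a smaller value is more alike. Nearest to miR-181a-5p were miR-125a-5p (0.105), miR-708-5p (0.118) and miR-484 (0.126), while its own relatives were at 0.198 to 0.218 and the median of all other tested miRNAs was 0.465. miR-125a-5p belongs to a family known for its conserved role in developmental timing and neural differentiation. It went from 2979 through 3451 to 3728 mean CPM, and miR-708-5p from 721 through 962 to 925. Nearest to miR-181b-5p were miR-125b-5p (0.115), miR-423-5p (0.121) and miR-325-5p (0.133), with miR-181d-5p at 0.127. Nearest to miR-181c-5p were miR-708-5p (0.147), miR-30e-5p (0.155) and miR-677-5p (0.254), with miR-181a-5p at 0.198. Nearest to miR-181d-5p were miR-186-5p (0.148), let-7g-5p (0.150) and miR-106b-5p (0.152), while miR-181b-5p was nearer than any of them at 0.127. Among the members, miR-181b-5p and miR-181d-5p were nearest to each other, while miR-181a-5p was about as far from miR-181c-5p (0.198) as from miR-181b-5p (0.202); miR-181c-5p and miR-181d-5p, from neighbouring genes, were at 0.301.

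Because the family is also known from blood cells and endothelium, their miRNAs were read beside it. The summed CPM of each of the 3 lists, erythroid, endothelial and other blood cells, was lower in neurons than in proliferating progenitors. Of the 2 endothelial miRNAs in the table, miR-126b-5p was at 0 in all 9 libraries, and miR-126a-5p was at 18.4 to 26.2 CPM in proliferating progenitors, 11.4 to 12.3 in differentiating progenitors and 5.28 to 12.3 in neurons. The summed CPM of the 5 miRNAs of other blood cells in the table, of 9 listed, was 47.1 to 60.3, 20.7 to 37.0 and 8.44 to 9.01. Of these, miR-142a-5p, found in blood cells, was at 0 counts in all 3 neuron libraries. In the same list miR-146a-5p was at 3.79 to 12.3, 9.28 to 18.5 and 0.772 to 1.54 CPM. The summed CPM of 2 erythroid miRNAs was 260 to 354, 0.881 to 2.86 and 0 to 2.31. The list of 5 mural or mesenchymal miRNAs summed to 437 to 579, 40.0 to 43.4 and 17.7 to 36.3 CPM, nearly all of it miR-143-3p (429 to 565, 35.7 to 39.9 and 11.5 to 34.2 CPM). The part of these cells in the levels of the family in proliferating progenitors was not tested.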

How the data were processed

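Small RNA libraries of 9 sorted samples were analysed from 1 table of whole-number read counts that the authors deposited, with 1 column per library. The counts are not normalised, as the differing column totals show. The submitters' processing notes name the mm10 build, bcl2fastq 1.8.2 and DESeq2; the counting tool, the mismatches allowed and the miRNA database release are not given in the sources used here. Of 1433 rows, 222 without a database accession were left out. For each mature name the precursor row with the largest total was kept, and names of at least 50 counts that differed by at most 2% were merged, which left 1052 miRNAs and library totals of 821155 to 3856484.

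edgeR 4.0.16 (R 4.3.3) was fitted to all 9 libraries, without covariates: filterByExpr by population (188 miRNAs, 99.97% of counts), TMM factors, glmQLFit and glmQLFTest. The Benjamini-Hochberg adjustment ran over all 188, with a threshold of 0.05. An SE is the size of the log2 change divided by the square root of F. Exact permutation tests were run on the ratios of members (numpy 2.4.6, F statistic over 3 populations, two-sided difference for a pair of them). Alternatives were other scalings, filters, tests (DESeq2 1.42.0, limma-voom from limma 3.58.1), samples and rows.

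The members, marker lists and tests were chosen with earlier results of these data known. Named were the members, for each member the 3 tested miRNAs outside the family with the most similar profile (log2 CPM, prior count 2), the neighbours in rank and the marker lists. Same-numbered libraries of the 3 populations were not treated as pairs.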

Additional observations from a re-analysis of the deposited data

How the results depend on the processing

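The rise of miR-181a-5p over the whole lineage kept its direction in all 20 alternatives and its call in 19; single libraries left out gave log2 changes from 0.31 to 0.46. Its first step passed the threshold with DESeq2 (log2 change 0.29) and in a fit of 2 populations (0.32), and ran from 0.24 to 0.34 with libraries left out. miR-181c-5p over the whole lineage passed with library totals (0.63) and ran from 0.29 to 0.58 with libraries left out. The uncalled changes of miR-181b-5p and miR-181d-5p are near 0 and changed sign under scalings that move all miRNAs together, among others. For miR-181b-5p it reversed without the counts of miR-9-5p in the totals at the first step (-0.01), the second (0.04) and over both (0.03), and over both with library totals (0.12); libraries left out gave -0.04 to 0.13 at the first step and -0.20 to 0.00 at the second. For miR-181d-5p it reversed at the first step without miR-9-5p (-0.04), with summed rows (-0.02) and with predicted rows (-0.01), at the second with library totals (0.04) and without miR-9-5p (0.09), and over both with library totals (0.14) and without miR-9-5p (0.04); libraries left out gave -0.20 to 0.02 at the second step and -0.19 to 0.02 over both. Library totals moved the median log2 change of all tested miRNAs by 0.07, 0.11 and 0.18 in the 3 comparisons, and totals without miR-9-5p by -0.07, 0.17 and 0.10, and the higher share of calls at the second step from 51.7% to 61.3% and 65.3%.

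The log2 ratio of miR-181a-5p to miR-181b-5p kept its call with summed or averaged rows, another pseudocount and the smaller row, and differed by 0.38 to 0.49 between neurons and proliferating progenitors with libraries left out. The same ranges were 0.36 to 0.52 for miR-181a-5p to miR-181d-5p, 0.35 to 0.69 for miR-181c-5p to miR-181d-5p, -0.21 to 0.03 for miR-181a-5p to miR-181c-5p, -0.70 to -0.41 for miR-181b-5p to miR-181c-5p and -0.06 to 0.04 for miR-181b-5p to miR-181d-5p. The summed family, by construction of the denominator, was at 41659, 44639 and 50183 CPM in the 3 populations with totals without miR-9-5p and at 10784, 11862 and 12148 CPM with summed rows; with library totals it was at 13636 CPM in proliferating progenitors and 17500 CPM in neurons. The number of miRNAs called at the first step, 30, was 19 with predicted rows included, for which the cause was not tested, and 18 to 37 with libraries left out, the lowest without proliferating progenitor replicate 1.

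The labels number the libraries 1 to 3 in each population. Deviations of same-numbered libraries correlated from -0.07 to 0.25, and the numbers were not read as pairs. With a replicate block miR-181a-5p had a log2 change of 0.36 over the whole lineage (edgeR adjusted p = 0.0246) and no other member was called. The ratios of members were not tested with such a block. A library matched its own number best in 10 of 18 comparisons, above the 6 of 18 that numbers without meaning would give on average, which is a hint from the data and not from the design.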
